A study of Homo sapiens with 12 samples.

Results

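The zinc exporters of the SLC30A family were followed through 4 treatment groups of the established cell line SU-DHL-4, a diffuse large B cell lymphoma (DLBCL) of the germinal center type. The members are the rows of the deposited count table with the symbols SLC30A1, SLC30A4, SLC30A5, SLC30A6, SLC30A7 and SLC30A9, which are 6 of its 46863 genes, and all 6 passed the filter on low counts. SLC30A4 was selected on its higher counts after Ento with or without AZD, so its values, which rest on all 4 groups, are a description without a test. The other 5 were taken as its paralogues. The cells had been exposed for 72 h to DMSO as the vehicle, to 1 µM Ento (entospletinib, which blocks the B cell receptor kinase SYK), to 0.01 µM AZD (AZD5153, a bivalent blocker of BET proteins) or to Ento+AZD, the same 2 concentrations combined. Polyadenylated RNA was sequenced in 3 libraries per group, which the series describes as biological replicates of this 1 cell line, and total counts per library lay between 18121993 and 24675830. Levels are given as CPM, the counts of a gene scaled to the size of its library after TMM normalization, where 1 count is worth 0.0393 to 0.0564 CPM.

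Most proteins of the SLC30A family, also called ZnT, move zinc ions out of the cytosol, either across the plasma membrane or into an organelle, in exchange for protons. SLC39A proteins, also called ZIP, move zinc the opposite way, and metallothioneins bind zinc within the cytosol. SLC30A1 exports zinc from the cell, SLC30A4 and SLC30A3 load endosomes and other vesicles, SLC30A5, SLC30A6 and SLC30A7 supply zinc to enzymes of the early secretory pathway, and SLC30A9 exports zinc from mitochondria. When free zinc rises, the transcription factor MTF1 binds metal response elements and switches on SLC30A1 and the metallothionein genes.

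The 250 bases before the start site of SLC30A4 and of SLC30A1 are shown beside those of the metallothionein genes MT1X and MT2A, because SLC30A1, MT1X and MT2A were high in the same DMSO library while SLC30A4 was not. SLC30A3 was highest in that library as well, and its cores are given by count. Capitals mark the core of the metal response element, searched as TGCACNC or TGCGCNC on both strands, where N is any base and overlapping matches count separately. A core on the opposite strand appears here as its reverse complement. The sequences are those of RefSeq on GRCh38.p14, read 5′ to 3′ along the strand of the gene, at chr15:45522756-45523005 (minus strand) for SLC30A4, chr1:211579162-211579411 (minus strand) for SLC30A1, chr16:56682220-56682469 (plus strand) for MT1X and chr16:56608334-56608583 (plus strand) for MT2A.
SLC30A4: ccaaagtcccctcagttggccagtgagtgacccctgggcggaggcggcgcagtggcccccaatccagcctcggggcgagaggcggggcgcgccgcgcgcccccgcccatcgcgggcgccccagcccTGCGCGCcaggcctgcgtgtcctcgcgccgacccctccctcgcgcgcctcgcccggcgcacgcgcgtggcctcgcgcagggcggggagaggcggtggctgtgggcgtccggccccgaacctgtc
SLC30A1: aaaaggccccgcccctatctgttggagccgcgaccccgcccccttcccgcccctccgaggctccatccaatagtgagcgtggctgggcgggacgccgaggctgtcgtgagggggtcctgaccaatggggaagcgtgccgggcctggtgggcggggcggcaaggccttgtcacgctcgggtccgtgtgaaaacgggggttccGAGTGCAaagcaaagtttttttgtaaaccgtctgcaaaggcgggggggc
MT1X: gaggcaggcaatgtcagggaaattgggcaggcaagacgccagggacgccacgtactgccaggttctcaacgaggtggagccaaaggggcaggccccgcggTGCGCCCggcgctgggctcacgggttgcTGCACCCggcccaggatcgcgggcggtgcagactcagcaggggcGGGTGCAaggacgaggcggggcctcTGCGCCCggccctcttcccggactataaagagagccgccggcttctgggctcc
MT2A: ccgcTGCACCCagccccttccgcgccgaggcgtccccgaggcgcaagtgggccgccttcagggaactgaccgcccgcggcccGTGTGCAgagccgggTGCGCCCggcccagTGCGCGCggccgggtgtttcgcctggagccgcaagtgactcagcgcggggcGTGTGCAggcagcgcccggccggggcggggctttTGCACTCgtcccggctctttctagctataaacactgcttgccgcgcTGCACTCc
The window of SLC30A4 held 1 core, whose first base lay 124 bases before the start site, and that of SLC30A1 held 1 core at 49 bases. MT1X held 4 and MT2A held 7. Among genes with at most 1 count in any library, MT1H held 8, MT1B, MT4 and SLC30A2 held 3 each, and the windows of SLC30A10 held none. A link between cores and levels was not tested. SLC30A6 held 1 core at 128 bases, the windows of the 2 start sites of SLC30A3 held 1 and 2 cores, and the windows of SLC30A5, SLC30A7 and SLC30A9 held none of these letters. Of 35116 such windows in the RefSeq table, 24.83% held at least 1 core, 6.481% at least 2 and 1.58% at least 3, so a single core is common among all genes. A match is a description of the sequence and not a binding site.

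SLC30A4, which loads zinc into endosomal and secretory vesicles, lies on chromosome 15 from 45479606 to 45522755 on the minus strand (GRCh38, GENCODE v44). Its counts were 216, 146 and 141 in the DMSO libraries, 415, 384 and 304 with Ento, 113, 74 and 48 with AZD and 329, 477 and 222 with Ento+AZD. All Ento and Ento+AZD libraries lay above all DMSO libraries, and all AZD libraries lay below them. The mean level was 6.94 ± 1.54 CPM with DMSO (SD, n = 3), 17.3 ± 2.36 CPM with Ento, 3.68 ± 1.24 CPM with AZD and 17.1 ± 5.18 CPM with Ento+AZD. Each library is a bulk of cultured cells, so fewer cells that express a gene and less RNA per cell cannot be told apart.

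Within the same replicate number the level with Ento was 2.03 to 2.94 times that with DMSO, and the fitted log2 fold change was 1.32. Against DMSO, Ento+AZD gave ratios of 1.87 to 3.40 and a log2 fold change of 1.29. Against AZD alone the ratios with Ento+AZD were 3.38 to 5.75 and the log2 fold change was 2.21, which exceeds the change that Ento gave without AZD by 0.89. Across all genes 4.66% were called higher and 3.66% lower at an adjusted p under 0.05 for Ento against DMSO. For Ento+AZD against AZD these shares were 5.85% and 6.04%. These values describe how the gene was chosen and carry no test.

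**Figure D1:**
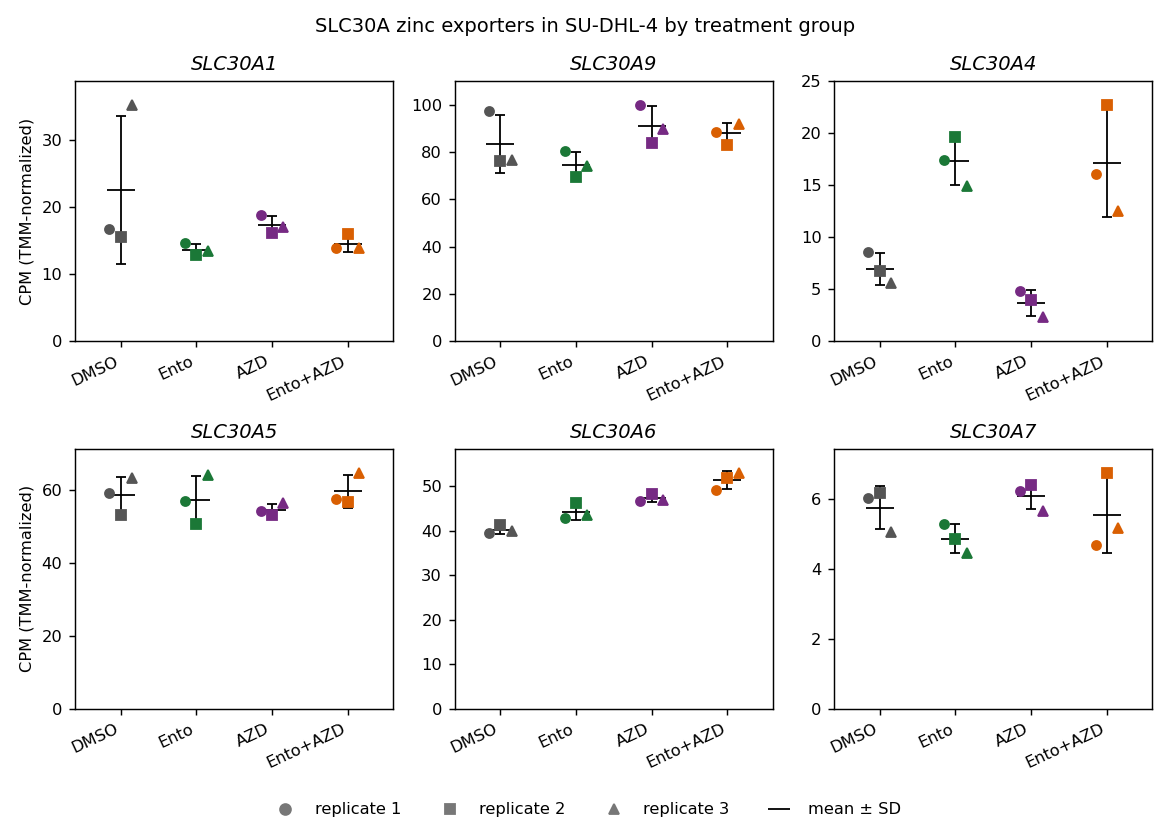
TMM-normalized CPM (y axis, from 0) of the 6 members by treatment group (x axis), with a symbol for each replicate number and a line and bar for the mean ± SD of 3 libraries. SLC30A4, which was chosen for its rise with Ento, runs from 2.32 CPM in AZD replicate 3 to 22.7 CPM in Ento+AZD replicate 2. SLC30A1 shows DMSO replicate 3 at 35.3 CPM above all other libraries.

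The remaining contrasts of SLC30A4 rest on the same libraries as its choice and are therefore also given without a test. With AZD alone the level was 0.419 to 0.591 of the DMSO level within replicate numbers, and the fitted log2 fold change was -0.93. It stayed between -1.13 and -0.78 when any 1 library was left out. Between Ento+AZD and Ento the log2 fold change was -0.04, and it ranged from -0.23 to 0.11 when 1 library was left out. The groups with Ento thus lay at a like level with or without AZD, while the level without Ento was lower with AZD than with DMSO.

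Markers of other cell types were read beside these levels, because 2 of their lists were also lower with AZD. All 7 B cell markers had at least 10 counts in every library. Of the 4 T cell markers CD3D and CD2 were at 0 throughout, and the list summed to 0.864 to 1.71 CPM with DMSO, 1.23 to 2.14 CPM with Ento, 0.534 to 0.823 CPM with AZD and 0.810 to 0.959 CPM with Ento+AZD. The fibroblast list rested on DCN, which encodes the proteoglycan decorin, while COL1A2 was at 0 and COL1A1 reached 2 counts. It summed to 53.0 to 93.1 CPM with DMSO, 63.6 to 126 CPM with Ento, 37.0 to 75.8 CPM with AZD and 38.1 to 68.1 CPM with Ento+AZD. DCN was lower with Ento+AZD than with Ento (log2 fold change -0.70, SE 0.10, adjusted p = 0.00059 in edgeR). Their part in the levels of SLC30A4 was not tested.

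The counts of SLC30A4 may include reads of transcripts from the opposite strand, since the use of strand in counting is not stated. Exons of the pseudogene HMGN2P46 cover 215 of its 8026 exon bases (2.68%), and those of SLC30A4-AS1 cover 139. HMGN2P46 had 5 to 18 counts per library and was not called in any contrast, and the row that RefSeq pairs with SLC30A4-AS1 (LOC105376714) was at 0 in all 12 libraries. Among protein-coding neighbours, BLOC1S6, a subunit of a complex for the biogenesis of lysosome-related organelles, begins 64459 bases away and rose with Ento from 155 to 157 CPM in the DMSO libraries to 196 to 214 CPM (log2 fold change 0.39, SE 0.08, adjusted p = 0.0071 in edgeR). It was also higher with Ento+AZD than with DMSO (0.29) and than with AZD (0.44), and without the replicate block the Ento and the Ento+AZD against AZD calls were lost. The Ento call was also lost without Ento replicate 1 (adjusted p = 0.0507 in edgeR). SPATA5L1, 58191 bases away on the other side, fell with Ento+AZD by 0.38 against DMSO and by 0.32 against Ento on the log2 scale, of which the second was lost without the replicate block (adjusted p = 0.14 in edgeR) or any 1 of the Ento or Ento+AZD libraries, and GATM was not called. C15orf48 reached 2 counts and SQOR 9, and both were not tested.

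The 5 genes whose profile over the 12 libraries was most like that of SLC30A4, among 14165 genes with at least 1 CPM on average, were KANK2 (Pearson r = 0.972), LOC105378184 (0.972), BFSP2 (0.971), TRIM55 (0.969) and CD37 (0.967). The correlation used log2 CPM with the effect of the replicate number removed, and the libraries share the 4 treatments, so it is a description. CD37 encodes a tetraspanin of mature B cells and BFSP2 a filament protein known from the eye lens. KANK2 had a mean of 159 CPM with DMSO, 326 CPM with Ento, 95.9 CPM with AZD and 250.2 CPM with Ento+AZD, so that it shared the high Ento and low AZD levels. Among the other members r was 0.578 for SLC30A5 (rank 1542), 0.223 for SLC30A6, -0.437 for SLC30A1, -0.488 for SLC30A9 and -0.595 for SLC30A7. When the replicate number was not removed, r for SLC30A5 was 0.126 (rank 5305).

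SLC30A3, which fills vesicles in neurons with zinc and is no member, was the other expressed vesicle exporter, and unlike SLC30A4 it was lower, not higher, after the exposures that held Ento. With AZD alone both genes lay below DMSO. The level of SLC30A3 was 6.92, 8.02 and 12.5 CPM in the DMSO libraries, 4.96, 4.35 and 5.50 CPM with Ento, 5.69, 3.21 and 5.47 CPM with AZD and 2.25, 2.53 and 2.37 CPM with Ento+AZD. Every exposed library lay below every DMSO library, and the Ento+AZD libraries were the lowest. The log2 fold change was -0.87 with Ento (SE 0.19, adjusted p = 0.013 in edgeR), -0.91 with AZD (SE 0.19, adjusted p = 0.0051 in edgeR) and -1.90 with Ento+AZD (SE 0.21, adjusted p = 1.9e-05 in edgeR). Only the last of these kept its call without the replicate block (adjusted p = 0.0022 in edgeR), and the Ento call was also lost without DMSO replicate 3 (adjusted p = 0.068 in edgeR) or any 1 Ento library. Ento+AZD was below each single agent too, by 1.04 against Ento (adjusted p = 0.0051 in edgeR) and by 0.99 against AZD (adjusted p = 0.012 in edgeR) on the log2 scale. Both of these calls were lost without the replicate block, and the second was lost without AZD replicate 1, Ento+AZD replicate 1 or Ento+AZD replicate 3. The interaction of the agents on SLC30A3 was -0.12 (SE 0.29, adjusted p = 0.92 in edgeR).

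SLC30A5, SLC30A6 and SLC30A7 supply the early secretory pathway, where SLC30A5 and SLC30A6 act as a heteromer and SLC30A7 as a homomer. They lie on chromosome 5 (69093991 to 69131069), chromosome 2 (32165841 to 32224379) and chromosome 1 (100896076 to 100981757), all on the plus strand. SLC30A6 was the one of them that changed. It had 39.6, 41.2 and 39.9 CPM in the DMSO libraries, 43.0, 46.3 and 43.5 CPM with Ento, 46.6, 48.3 and 47.0 CPM with AZD and 49.2, 51.9 and 53.1 CPM with Ento+AZD. These groups did not overlap and stood in that order, although the steps were small.

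Overexpression of SLC30A6 with Ento+AZD reached a log2 fold change of 0.35 (SE 0.07, adjusted p = 0.0015 in edgeR), a level 1.24 to 1.33 times that of DMSO within pairs. This call held in every alternative that was run, including the model without the replicate block (adjusted p = 0.015 in edgeR). With AZD the log2 fold change was 0.23 (SE 0.07, adjusted p = 0.031 in edgeR). It was 0.22 for Ento+AZD against Ento (SE 0.07, adjusted p = 0.047 in edgeR) and 0.14 with Ento (SE 0.07, adjusted p = 0.25 in edgeR). The call with AZD was lost without the replicate block (adjusted p = 0.12 in edgeR), with only the groups compared and with no filter on low counts. It was also lost without any 1 of the DMSO or AZD libraries or Ento replicate 1 (adjusted p of 0.0508 to 0.11 in edgeR). Its size stayed between 0.22 and 0.24 when 1 library was left out. The call against Ento was lost without the replicate block (adjusted p = 0.18 in edgeR), in DESeq2 and with no filter on low counts. It was also lost without any 1 of the Ento, AZD or Ento+AZD libraries.

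The partner SLC30A5 was measured at 53.2 to 63.4 CPM with DMSO, 50.7 to 64.1 CPM with Ento, 53.2 to 56.4 CPM with AZD and 56.7 to 64.8 CPM with Ento+AZD. It was not called in any contrast, and its log2 fold changes of -0.10 to 0.13 had 95% confidence limits no wider than -0.26 and 0.29 in the 5 pairwise contrasts. Part of its exons (532 of 5439 bases, 9.78%) lie opposite the exons of a lncRNA, so reads of both cannot be told apart without strand. SLC30A7 had 5.07 to 6.18 CPM with DMSO, 4.47 to 5.30 CPM with Ento, 5.66 to 6.41 CPM with AZD and 4.70 to 6.77 CPM with Ento+AZD. It was not called in any contrast, but at 91 to 152 counts per library its limits were wider, from -0.55 to 0.50 over the 5 pairwise contrasts.

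SLC30A1, the exporter at the plasma membrane, lies on chromosome 1 from 211571568 to 211579161 on the minus strand. It had 16.7, 15.6 and 35.3 CPM in the DMSO libraries, 14.6, 12.8 and 13.5 CPM with Ento, 18.8, 16.1 and 17.0 CPM with AZD and 13.8, 15.9 and 13.8 CPM with Ento+AZD. DMSO replicate 3 thus held more than every other library, at 2.11 times the next DMSO library. Underexpression with Ento+AZD was called at a log2 fold change of -0.58 (SE 0.21, adjusted p = 0.042 in edgeR), but only 2 of 3 pairs were lower. Without DMSO replicate 3 it was -0.13 (adjusted p = 0.40 in edgeR), and the call was lost in DESeq2 (adjusted p = 0.12), with only the groups compared (adjusted p = 0.079 in edgeR), without the replicate block (adjusted p = 0.10 in edgeR) and in 7 of the 12 fits that left out 1 library (any Ento library, DMSO replicate 3, AZD replicate 2, Ento+AZD replicate 1 or Ento+AZD replicate 3). With Ento the log2 fold change was -0.68 (SE 0.21, adjusted p = 0.064 in edgeR) and -0.23 without DMSO replicate 3. It was called with only the groups compared (adjusted p = 0.028 in edgeR), with no filter on low counts (adjusted p = 1.8e-06 in edgeR) and without DMSO replicate 1, DMSO replicate 2 or Ento+AZD replicate 2, all of which kept DMSO replicate 3. With AZD it was -0.34 (SE 0.21, adjusted p = 0.27 in edgeR), it was called with no filter on low counts (adjusted p = 0.035 in edgeR), and it turned to 0.12 without DMSO replicate 3.

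The metallothioneins were high in the same library. MT1X had 18.4 CPM in DMSO replicate 3 against 3.87 to 5.83 CPM in the other 11 libraries, and MT2A had 40.6 CPM against 2.52 to 8.31 CPM. SLC30A3 had its highest level there as well (12.5 CPM against 2.25 to 8.02 CPM), whereas SLC30A4, SLC30A5, SLC30A6, SLC30A7, SLC30A9 and MTF1 did not. MTF1, the activator of these genes, had 24.1 CPM there and 22.9 to 32.0 CPM elsewhere. The labels name nothing that sets this library apart, and what raised these transcripts in it was not tested.

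**Figure D2:**
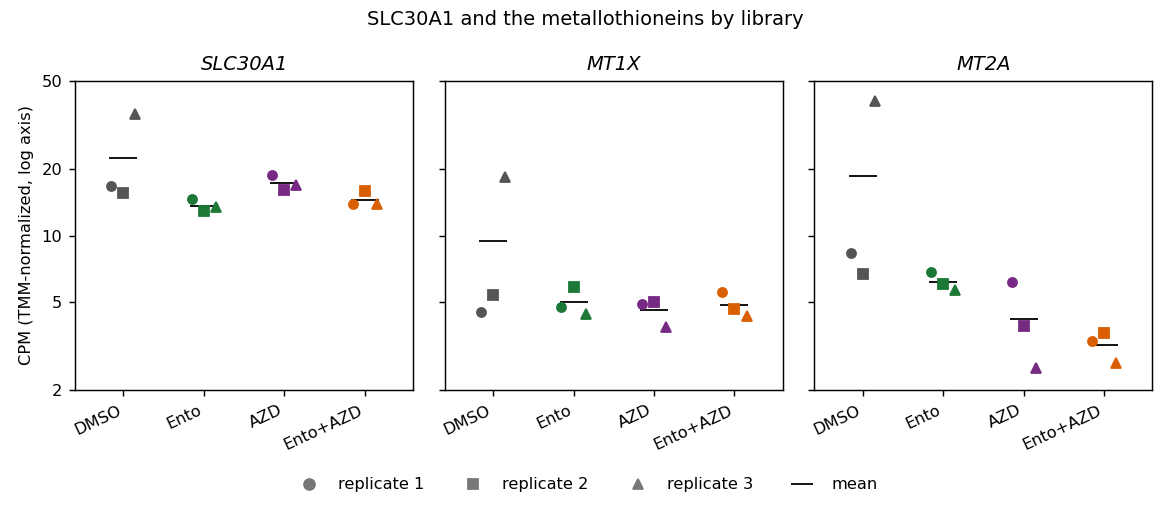
TMM-normalized CPM on a log axis (y axis) of SLC30A1, MT1X and MT2A in each library by treatment group (x axis), with a symbol for each replicate number and a line for the mean of 3 libraries. In all 3 genes DMSO replicate 3 (35.3, 18.4 and 40.6 CPM) stands above the other 11 libraries.

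Of the 12 metallothionein and MTF1 genes listed, 3 were tested and the other 9 had at most 1 count in any library. MT2A, at the highest level per kilobase among them, was underexpressed with AZD by a log2 fold change of -1.91 (SE 0.52, adjusted p = 0.019 in edgeR) and with Ento+AZD by -2.31 (SE 0.54, adjusted p = 0.0037 in edgeR). Without DMSO replicate 3 the sizes shrank to -0.71 (adjusted p = 0.034 in edgeR) and -1.07 (adjusted p = 0.0018 in edgeR). The AZD call was also lost without the replicate block (adjusted p = 0.077 in edgeR), without AZD replicate 2 (adjusted p = 0.054 in edgeR) and without AZD replicate 3 (adjusted p = 0.16 in edgeR). For Ento+AZD against Ento the log2 fold change of MT2A was -0.93 (adjusted p = 0.26 in edgeR), and without DMSO replicate 3 it was called (-0.95, adjusted p = 0.0037 in edgeR). MT1X was not called, and without DMSO replicate 3 its log2 fold changes against DMSO lay between -0.01 and 0.10. Metallothionein genes are near-identical copies, so the assignment of reads among them is uncertain.

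SLC30A9, the mitochondrial exporter on chromosome 4 (41990502 to 42090461, plus strand), had 97.7, 76.4 and 76.7 CPM with DMSO, 80.4, 69.5 and 74.3 CPM with Ento, 100.2, 84.0 and 89.8 CPM with AZD and 88.5, 83.2 and 92.2 CPM with Ento+AZD. The Ento libraries lay below all AZD and all Ento+AZD libraries, and the other groups overlapped. Ento+AZD was above Ento by a log2 fold change of 0.24 (SE 0.08, adjusted p = 0.046 in edgeR). This call was lost without the replicate block (adjusted p = 0.29 in edgeR), in DESeq2 (adjusted p = 0.0501) and with no filter on low counts. It was also lost in 8 of the 12 fits that left out 1 library, namely without any 1 of the Ento or AZD libraries, Ento+AZD replicate 2 or Ento+AZD replicate 3. It was not called in any other contrast, where its log2 fold changes were -0.16 with Ento, 0.13 with AZD, 0.08 with Ento+AZD and -0.05 for Ento+AZD against AZD.

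**Figure D3:**
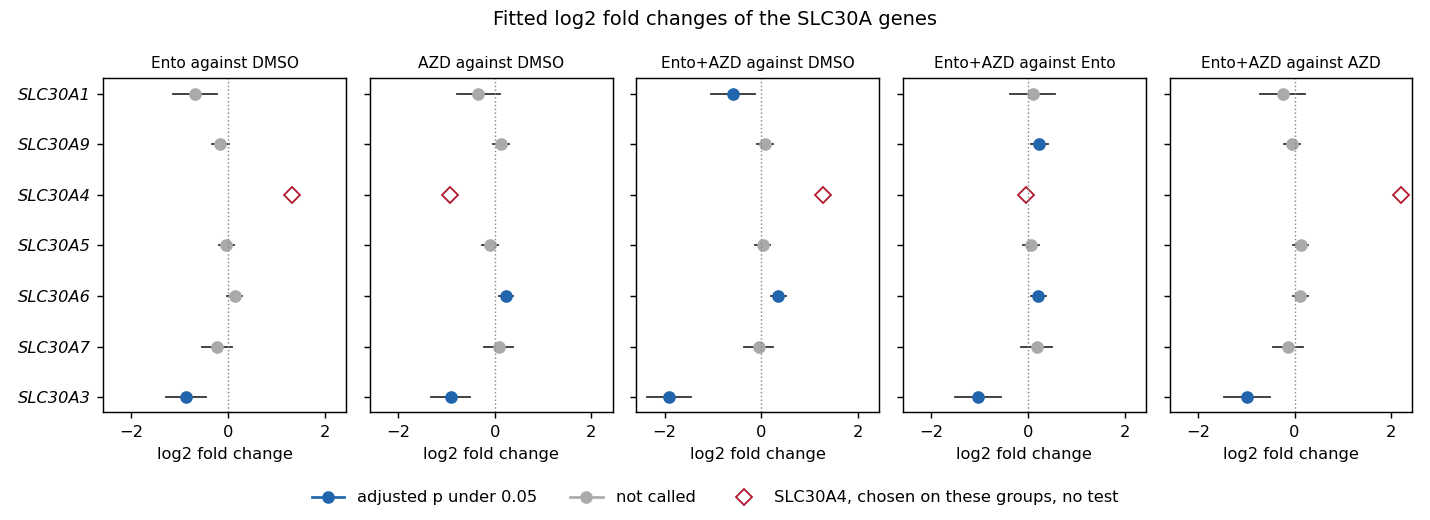
Fitted log2 fold change (x axis) of each member and of SLC30A3 (y axis) in the 5 pairwise contrasts, with 95% confidence intervals as bars. Blue points passed an adjusted p under 0.05, grey points did not, and open diamonds mark SLC30A4 (1.32, -0.93, 1.29, -0.04 and 2.21 from left to right), which was chosen on these groups and carries no test. SLC30A3 lies below 0 in all 5 panels.

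The calls were counted over the members beside the share called among all genes. For Ento against DMSO 0 of the 5 members that could be tested were called in edgeR and 0 in DESeq2. Beside this, 4.66% of all genes were called higher and 3.66% lower in edgeR. An unadjusted p under 0.05 in edgeR was found for 1 of the 5 members and for 4098 of all 16835 genes. For AZD against DMSO 1 of 5 was higher (SLC30A6) and 0 lower, against 9.57% and 12.7% of all 16835 genes. For Ento+AZD against DMSO 1 of 5 was higher (SLC30A6) and 1 lower (SLC30A1), against 19.2% and 20.8%. For Ento+AZD against Ento 2 of 5 were higher (SLC30A6 and SLC30A9) and 0 lower, against 8.27% and 12.2%, and DESeq2 called 0. For Ento+AZD against AZD 0 of 5 were called in edgeR and in DESeq2, beside 5.85% of all genes called higher and 6.04% lower in edgeR. An unadjusted p under 0.05 in edgeR was found for 0 of 5 members and for 4720 of all 16835 genes.

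The median log2 fold change of the members that could be tested was -0.16 with Ento, 0.085 with AZD, 0.03 with Ento+AZD, 0.18 for Ento+AZD against Ento and -0.05 for Ento+AZD against AZD. Over all genes these medians lay between -0.0077 and 0.01. The interaction of the agents was called for 0 of 5 members in edgeR and in DESeq2, and 0 had an unadjusted p under 0.05 in edgeR. In the whole table it was called for 0% of genes (0 genes in edgeR against 7 in DESeq2), although 1652 genes had an unadjusted p under 0.05 in edgeR.

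To order the members, CPM was divided by the exon length of each gene, with all its annotated exons merged. The annotation used in counting is not stated, so the order may depend on this length. With DMSO the levels per kilobase were 11.6 ± 1.70 for SLC30A9, 10.8 ± 0.941 for SLC30A5, 7.44 ± 0.162 for SLC30A6, 3.82 ± 1.88 for SLC30A1, 0.864 ± 0.192 for SLC30A4 and 0.670 ± 0.0705 for SLC30A7 (CPM per kilobase, SD, n = 3), with SLC30A3 at 1.59 ± 0.513 between SLC30A1 and SLC30A4. The ranges of SLC30A9 and SLC30A5 overlapped, as did those of SLC30A4 and SLC30A7, and the other neighbours were apart. SLC30A4, chosen for its rise with Ento, changed its place among the exposures, and so did SLC30A3. The level of SLC30A3 was 0.413 ± 0.0240 with Ento+AZD, the lowest of the expressed genes there. SLC30A7 changed place too, and SLC30A9 and SLC30A5 traded places with Ento, where their ranges overlapped. With Ento SLC30A4 stood at 2.16 ± 0.294, overlapping SLC30A1 at 2.32 ± 0.154. With Ento+AZD it stood at 2.13 ± 0.645, again overlapping SLC30A1 at 2.46 ± 0.204. With AZD it was the lowest of the expressed genes at 0.458 ± 0.155 and did not overlap SLC30A7 at 0.710 ± 0.0457.

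**Figure D4:**
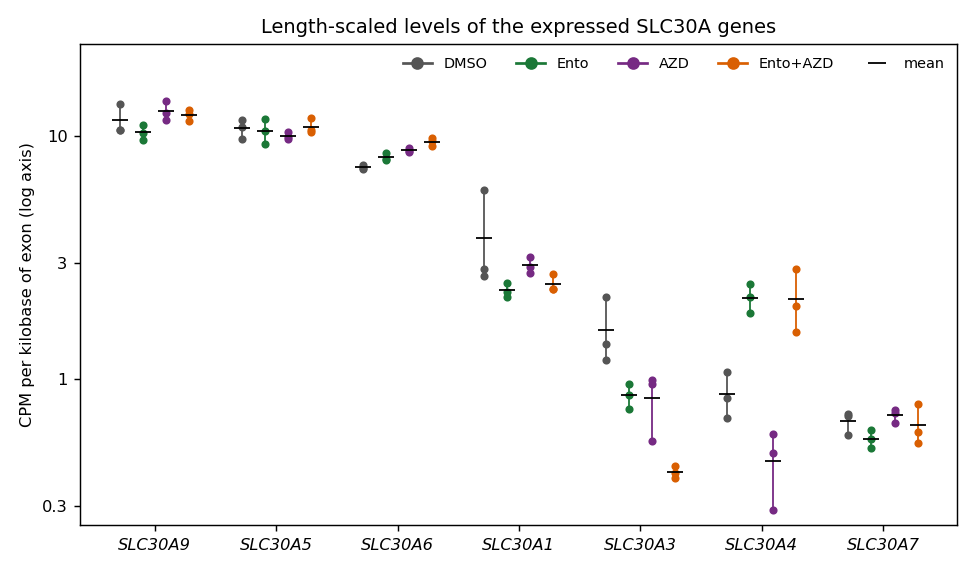
CPM per kilobase of exon on a log axis (y axis) of the 6 members and SLC30A3 (x axis, ordered by the DMSO mean), with a point for each library, a line over the range of 3 libraries and a black dash for the mean of each treatment group. SLC30A4 moves from 0.458 with AZD to 2.16 with Ento, and SLC30A3 from 1.59 with DMSO to 0.413 with Ento+AZD. SLC30A9, SLC30A5 and SLC30A6 stay between 7.32 and 13.9.

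The family sum per kilobase, taken over all 10 SLC30A genes of the table, was 36.8 ± 2.85 with DMSO, 35.0 ± 1.32 with Ento, 36.4 ± 1.54 with AZD and 38.3 ± 1.12 with Ento+AZD, and the ranges of the groups overlapped except for those of Ento and Ento+AZD. Within this sum SLC30A4 made up 2.36% with DMSO, 6.20% with Ento, 1.26% with AZD and 5.57% with Ento+AZD. The largest mean shares in every group were those of SLC30A9 and SLC30A5, at 29.6% to 34.8% and 27.6% to 30.04%. SLC30A2 and SLC30A10 had at most 1 count in any library and SLC30A8 had 0, so that these exporters of epithelia, liver and pancreatic islets were at or near 0. TMEM163, a zinc efflux protein without an SLC30A symbol, had 14 to 59 counts and was not called.

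The ZIP importers were read as the counterpart of the exporters. Of 14 SLC39A genes 11 were tested. With Ento 0 were called in edgeR and in DESeq2, beside 4.66% of all genes called higher and 3.66% lower in edgeR. An unadjusted p under 0.05 in edgeR was found for 4 of the 11 importers and for 4098 of all 16835 genes. With AZD 2 were higher and 1 lower, beside 9.57% and 12.7% of all genes. With Ento+AZD 2 were higher and 2 lower in edgeR, beside 19.2% and 20.8% of all genes, so these shares were near those of the whole table. DESeq2 called 1 higher and 2 lower in that contrast. Ento+AZD against Ento gave 1 lower (12.2% of all genes), and Ento+AZD against AZD gave 1 higher (5.85% of all genes). The median log2 fold change of the 11 was -0.0025 with Ento, 0.03 with AZD and -0.04 with Ento+AZD, against 0.01, 0.0055 and 0.01 over all genes.

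SLC39A1, an importer at the plasma membrane, had 39.0, 34.2 and 38.6 CPM with DMSO, 34.4, 26.9 and 36.5 CPM with Ento, 28.6, 23.5 and 28.3 CPM with AZD and 26.5, 20.6 and 23.4 CPM with Ento+AZD. Its log2 fold change was -0.48 with AZD (SE 0.08, adjusted p = 0.0018 in edgeR), -0.67 with Ento+AZD (SE 0.08, adjusted p = 4.5e-05 in edgeR) and -0.47 for Ento+AZD against Ento (SE 0.09, adjusted p = 0.0021 in edgeR). SLC39A14, an importer of zinc, iron and manganese, rose by 0.46 with AZD (SE 0.11, adjusted p = 0.010 in edgeR) and by 0.30 with Ento+AZD (SE 0.11, adjusted p = 0.040 in edgeR, higher in 2 of 3 pairs) on the log2 scale. The second value ranged from 0.19 without Ento+AZD replicate 3 to 0.46, and its call was lost in 6 of the 12 fits that left out 1 library, namely AZD replicate 2, DMSO replicate 1, DMSO replicate 3, Ento replicate 1, Ento+AZD replicate 1 or Ento+AZD replicate 3. The call with AZD was lost without AZD replicate 2 or AZD replicate 3. SLC39A4, the importer of dietary zinc in the gut, rose by 0.59 with AZD (SE 0.14, adjusted p = 0.0092 in edgeR), a call that was lost without AZD replicate 2 (adjusted p = 0.064 in edgeR). Smaller changes were called for SLC39A10 (-0.38) and SLC39A11 (0.31) with Ento+AZD against DMSO and for SLC39A13 (0.36) with Ento+AZD against AZD. The SLC39A10 value fell to -0.25 and lost its call without Ento+AZD replicate 1, and the call was also lost without DMSO replicate 2. The SLC39A11 call was lost in 6 of the 12 fits that left out 1 library (adjusted p at most 0.15 in edgeR) and the SLC39A13 call in 5 (adjusted p at most 0.16 in edgeR). Of these calls the one of SLC39A1 with Ento+AZD was kept without the replicate block (adjusted p = 0.012 in edgeR), and the others then had an adjusted p of 0.072 to 0.44 in edgeR. SLC39A6, at the highest level per kilobase of the importers, was not called.

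Among 10 zinc-dependent enzymes and lysosomal proteins 6 were tested. ENPP3, a zinc-dependent ectonucleotidase and the highest of them per kilobase, was higher after both exposures that held Ento. It had 43.6, 41.1 and 29.4 CPM with DMSO, 56.1, 63.4 and 45.1 CPM with Ento, 40.7, 41.4 and 38.5 CPM with AZD and 56.9, 67.7 and 53.6 CPM with Ento+AZD. Its log2 fold change was 0.53 with Ento (SE 0.10, adjusted p = 0.0056 in edgeR), 0.65 with Ento+AZD (SE 0.10, adjusted p = 0.00018 in edgeR) and 0.56 for Ento+AZD against AZD (SE 0.10, adjusted p = 0.0046 in edgeR). MCOLN1, a cation channel of lysosomes, rose by 0.59 with Ento+AZD (SE 0.15, adjusted p = 0.0063 in edgeR), and SMPD1, the zinc-dependent acid sphingomyelinase of lysosomes, was higher by 0.50 with Ento+AZD than with Ento (SE 0.15, adjusted p = 0.029 in edgeR). Without the replicate block the call of ENPP3 with Ento+AZD was kept (adjusted p = 0.024 in edgeR), and the other calls had an adjusted p of 0.078 to 0.24 in edgeR. The call of SMPD1 was also lost without any 1 of the Ento or Ento+AZD libraries. The numbers of list genes called higher were 1 with Ento (4.66% of all genes), 0 with AZD (9.57%), 2 with Ento+AZD (19.2%), 1 for Ento+AZD against Ento (8.27%) and 1 for Ento+AZD against AZD (5.85%). With 6 genes tested these counts do not set the list apart, and 0 were called lower in these contrasts.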

How the data were processed

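RNA-seq libraries of SU-DHL-4 (4 groups of 3) were analysed from the deposited counts, whole numbers of reads per gene without normalization. Single reads of polyadenylated RNA had been trimmed by the authors (CutAdapt, TrimGalore), mapped to GRCh38.p13 and counted per gene by Rsubread. The series record also names the build hg19, without a stated role. Strand use is not given in the sources used here. A second deposited table of normalized values was not used. Members and gene lists were chosen with earlier results of these data known.

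Genes were filtered with filterByExpr (minimum count 10, minimum total 15), leaving 16835 genes. Counts were normalized by TMM and tested with edgeR 4.0.16 (R 4.3.3) on 1 model of treatment group and replicate number, which stands for the study's batch term. SLC30A4 was chosen on these groups and was left out of all tests. A gene was called at a Benjamini-Hochberg adjusted p under 0.05 over all genes. DESeq2 1.42.0, other normalization and filters, the groups compared alone and leaving out each library were alternatives. Deviations from group means correlated at 0.220 to 0.716 between libraries with the same number (18 pairs) and at -0.640 to 0.336 otherwise (36 pairs), so the numbers were taken to pair the libraries. Replicates differed by more than sampling noise. The tests were tried on simulated data. Named from each list were the genes called in any contrast and the one with the highest level. Gene positions and exon lengths come from GENCODE v44.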

Additional observations from a re-analysis of the deposited data

How the results depend on the processing

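Counts of called members depended on the settings. The model without the replicate block called 0 members for AZD against DMSO (1 with the block), 1 for Ento+AZD against DMSO (2) and 0 for Ento+AZD against Ento (2). Over all genes this model called 36 for Ento (1401 with the block), 326 for AZD (3745), 2398 for Ento+AZD (6736), 206 for Ento+AZD against Ento (3440) and 17 for Ento+AZD against AZD (2001). DESeq2 called 1 member for Ento+AZD against DMSO and 0 for Ento+AZD against Ento, beside 5887 and 3098 of 30891 genes in all. With only the groups compared, 1 was called for Ento, 0 for AZD and 1 for Ento+AZD against DMSO. In all, 1346 of 16414, 2343 of 16204 and 4871 of 16198 genes were then called. With no filter on low counts, 1 was called for Ento and 0 for Ento+AZD against Ento, beside 2294 and 3849 of 30891 genes in all. The interaction was then called for 278 genes. Leaving out 1 library gave 0 to 1 members for Ento, 0 to 1 for AZD, 1 to 2 for Ento+AZD and 0 to 2 for Ento+AZD against Ento, and over all genes 427 to 1681, 1253 to 4112, 4879 to 6765 and 1402 to 4083. For Ento+AZD against AZD the range over all genes was 595 to 2613, and for the interaction it was 0 to 213. DESeq2 size factors changed no call of a member. Of the genes most like SLC30A4, 2 of 5 were shared when the replicate number was not removed and 5 of 5 with a prior count of 1.

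Log2 fold changes that turned direction when 1 library was left out ranged from -0.54 to 0.12 for SLC30A1 with AZD, from -0.092 to 0.25 for SLC30A1 for Ento+AZD against Ento, from -0.023 to 0.64 for SLC30A1 for the interaction, from -0.23 to 0.11 for SLC30A4 for Ento+AZD against Ento, from -0.072 to 0.0085 for SLC30A5 with Ento, from -0.053 to 0.0057 for SLC30A6 for the interaction, from -0.19 to 0.094 for SLC30A7 with Ento+AZD, from -0.27 to 0.0067 for SLC30A7 for Ento+AZD against AZD, from -0.038 to 0.25 for SLC30A7 for the interaction, from -0.11 to 0.027 for SLC30A9 for Ento+AZD against AZD and from -0.33 to 0.11 for SLC30A3 for the interaction. The cause of these changes was not tested. At 48 to 477 counts, SLC30A4 is measured less precisely than SLC30A5, SLC30A6 or SLC30A9.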
